A study of Mus musculus with 18 samples.

Results

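The genes described here are 33 mouse genes whose products build ribosomes, measured in gracilis muscle of mice given clenbuterol, an agonist of the β2-adrenergic receptor. They form a pathway (polymerase subunits, small nucleolar ribonucleoproteins and assembly factors of both ribosomal subunits) and make up 33 of the 18161 genes with a probeset on the chips. The probeset with the highest mean signal over its 9 arrays stood for each gene. Mice were C57BL/6J males, described by the study as 3 to 5 wk of age, and injections began after a period of acclimation. The age at tissue collection is not stated. Each RNA sample was a pool of 3 mice. The 24 h group received vehicle for 9 days and clenbuterol at 1 mg/kg on the tenth, the 10 D group received clenbuterol at 1 mg/kg on all 10 days, and the control (C) group received vehicle on all 10 days. Every injection was intraperitoneal, the vehicle was a mixture of ethanol, PEG200 and PBS that all groups received, and tissue was collected 24 h after the tenth one. Each group held 3 pools, so 9 pools and 27 mice were measured, each pool on 1 MOE430A and 1 MOE430B array. The study had picked the mice for RNA so that blood urea nitrogen and weight gain differed as much as possible between the clenbuterol groups and C. Whole cages were given 1 treatment at random, several cages to each, and mice were then put at random into pools within it. Cage was nested in treatment, and effects of single cages cannot be told apart in the pools.

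Ribosomes are made in the nucleolus. RNA polymerase I (Pol I) transcribes a long precursor RNA, C/D and H/ACA small nucleolar ribonucleoproteins (snoRNPs) guide its chemical modification, and the small subunit processome and large subunit assembly factors cut and fold it while ribosomal proteins are added. Skeletal muscle holds a large ribosome pool that bears on how much protein a fiber can make, and the genes of this pathway are known to respond to growth signals.

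Values are levels, meaning the signal of a probeset as a multiple of its array's median. They were compared on the log2 scale with limma, with Benjamini-Hochberg adjustment over all 33752 probesets tested on both chips and a threshold of adjusted p under 0.1. All 33 genes passed the filter on dim probesets. In whole muscle, fewer cells of a type and less RNA per cell cannot be told apart. Array medians were 35.7 to 62.1 in 24 h pools, 33.6 to 88.4 in 10 D pools and 30.8 to 64.95 in C pools on MOE430A, and on MOE430B 13.2 to 22.1 in 24 h, 14.9 to 37.1 in 10 D and 17.5 to 25 in C pools. Muscle fiber transcripts were abundant in every pool, with all 15 of 15 fiber markers tested.

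After 24 h, mRNA abundance of Tsr1 increased as measured by 1 of its 2 probesets, and most other ribosome biogenesis genes lay above C without passing the threshold. Tsr1 was the only one of 33 called (1 higher and 0 lower), where 0.329% of all probesets were called higher and 0.127% lower. At an unadjusted p under 0.05, 11 of the 33 were higher and 0 lower, where 6% of all tested genes were higher and 3.55% lower. The log2 change was above 0 for 28 and below 0 for 5 of the 33, against 53.5% and 46.5% of all genes. In 14 genes every 24 h pool exceeded every C pool, a pattern seen in 11.5% of all genes, and in 0 genes did every 24 h pool lie below (7.49% of all genes). The median log2 change was 0.36 (1.28-fold), and the values ranged from -0.48 to 1.41, while the median over all 15162 tested genes was 0.04. Both the 11 and the 14 genes include Nop56, whose probeset ranked first only through the clenbuterol pools. Its second probeset had a log2 change of 0.43, with pools that overlapped C. No test was made of the list as a whole.

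The pools differed in how far the list was shifted. Relative to the C mean, the median log2 level of the 33 genes was 0.54, 0.30 and 0.50 in 24 h pools 1 to 3. It was 0.23, -0.17 and 0.00 in 10 D pools and -0.03, -0.07 and -0.00 in C pools. Of the 33 genes, 28, 22 and 31 exceeded the C mean in 24 h pools, 20, 13 and 17 did so in 10 D pools, and 16, 11 and 16 in C pools. In each clenbuterol group the pool with the lowest of these medians, pool 2, also had the lowest array medians. In C the pool with the lowest, pool 2, had the highest array medians. The part of the array median in these values was not tested beyond the fit with it as a covariate, in which the count of called genes at 24 h was 4.

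Promoter windows from RefSeq on GRCm38.p6, running from 250 bases before to 50 bases after a start site, were found for 28 of the 33 genes. Of the 14 genes whose 24 h pools all exceeded the C pools, 12 had a window, of which 6 held a motif searched for (Tsr1, Utp4, Nop2, Heatr1, Polr1c and Utp20) and 6 held none (Nop56, Nop10, Wdr75, Nop14, Rrp1 and Gnl3). Gar1, Nhp2, Pes1, Utp18, Wdr43 and Wdr74 held a motif too, though their 24 h pools overlapped C. The windows shown are those of Tsr1, the called gene, and of Utp4, Nop2 and Heatr1, chosen because they held a motif, with the searched letters in capitals. CACGTG is the E-box read by MYC and related factors, CCGGAAGT (ACTTCCGG on the other strand) is an ETS-type element, and TGACGTCA is the cyclic AMP response element.
Tsr1, chr11:74897830-74898129, + strand: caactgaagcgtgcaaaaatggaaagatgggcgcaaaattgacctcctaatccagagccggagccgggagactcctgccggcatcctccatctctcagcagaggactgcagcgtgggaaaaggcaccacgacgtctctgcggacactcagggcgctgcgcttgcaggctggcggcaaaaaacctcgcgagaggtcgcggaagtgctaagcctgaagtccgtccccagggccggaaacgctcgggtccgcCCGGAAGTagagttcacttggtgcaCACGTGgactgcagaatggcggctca
Utp4, chr8:106893390-106893689, + strand: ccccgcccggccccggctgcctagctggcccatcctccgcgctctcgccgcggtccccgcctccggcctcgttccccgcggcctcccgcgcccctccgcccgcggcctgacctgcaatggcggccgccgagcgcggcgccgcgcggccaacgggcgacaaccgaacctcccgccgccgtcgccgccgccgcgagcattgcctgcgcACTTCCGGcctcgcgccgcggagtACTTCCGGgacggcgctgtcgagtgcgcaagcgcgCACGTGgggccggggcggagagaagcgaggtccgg
Nop2, chr6:125131633-125131932, + strand: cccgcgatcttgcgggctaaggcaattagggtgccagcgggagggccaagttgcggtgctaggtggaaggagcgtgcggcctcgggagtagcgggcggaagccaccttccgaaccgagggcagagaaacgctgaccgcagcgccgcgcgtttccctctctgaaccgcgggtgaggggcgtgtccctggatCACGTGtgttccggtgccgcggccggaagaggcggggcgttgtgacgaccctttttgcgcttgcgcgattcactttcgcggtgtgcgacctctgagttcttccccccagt
Heatr1, chr13:12395125-12395424, + strand: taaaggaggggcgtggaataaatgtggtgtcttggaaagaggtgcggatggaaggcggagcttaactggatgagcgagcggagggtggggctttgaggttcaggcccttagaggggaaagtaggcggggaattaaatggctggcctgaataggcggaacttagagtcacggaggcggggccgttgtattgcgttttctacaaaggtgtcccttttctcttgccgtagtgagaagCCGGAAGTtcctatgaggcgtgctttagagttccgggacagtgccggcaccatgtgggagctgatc
CACGTG on either strand occurred in 7 of 28 windows (25%: Nop2, Utp4, Utp20, Pes1, Tsr1, Utp18 and Wdr43), against 7.24% of 27025 genes with a window and 9.41% of the 12134 of them that were tested here. CCGGAAGT occurred in 7 of 28 (25%: Gar1, Utp4, Nhp2, Tsr1, Heatr1, Polr1c and Wdr74), against 4% and 6.82%. TGACGTCA occurred in 0 of 28, against 1.88% and 2.84%. Tsr1 and Utp4 held the E-box and the ETS-type letters together, with no overlap between the matches. In Tsr1 the ETS-type letters began 1 base before the start site and the E-box at base 25 after it. Among the 7 genes with an E-box, log2 changes at 24 h ran from -0.10 for Pes1 to 1.12 for Tsr1. The others lay between 0.30 (Wdr43) and 0.68 (Utp4), so that only Pes1 was below 0. In the whole list 28 of 33 genes were above 0. Whether genes with a motif differed from those without was not tested. A match of letters is a description of the window and shows no binding.

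The small subunit group held the called gene and the highest log2 change. Of its 11 genes 9 had log2 changes above 0 at 24 h, 5 were higher at an unadjusted p under 0.05, and 7 had every 24 h pool above every C pool. Over all genes the shares were 53.5%, 6% and 11.5%. The median log2 change of the 11 genes was 0.46. Tsr1 encodes a GTPase-like factor of late small subunit maturation, known from yeast. Its levels were 15.5, 23.8 and 16.7 in 24 h pools, 8.05, 7.50 and 8.26 in 10 D pools and 8.59, 8.15 and 8.58 in C pools. The 24 h pools stood apart from both other groups, which lay close together. The SD of the level was 4.47 at 24 h, 0.394 at 10 D and 0.253 in C, whereas the fit assumes 1 spread on the log2 scale. The log2 change at 24 h was 1.12 ± 0.21 (SE, n = 3 pools a group; 2.17-fold; limma adjusted p = 0.068), and at 10 D it was -0.09. The exact two-sided permutation test of 3 against 3 pools cannot go below p = 0.1, so a smaller p rests on the model, which takes errors as normally distributed. The call also rests on variance shared across probesets, since a plain analysis of variance did not make it. It was lost when any 24 h pool was left out (adjusted p 0.11 without pool 1, 0.15 without pool 2 and 0.18 without pool 3), when any C pool was left out (0.27, 0.28 and 0.22) and without 10 D pool 3 (0.13). Both Tsr1 probesets carry the s_at suffix, which Affymetrix gives where probes match more than 1 transcript. The other one, on MOE430A, had a log2 change of 0.28 ± 0.39 at 24 h (adjusted p = 0.90) and -0.29 at 10 D. The probesets used for Nop56, Polr1c, Fbl, Gar1 and Nhp2 carry the s_at suffix too.

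Rrp12, a HEAT-repeat protein that helps pre-ribosomes mature and leave the nucleus in yeast, had the highest log2 change of the 33. Its levels were 2.53, 1.89 and 2.68 in 24 h pools, 2.06, 1.43 and 1.06 in 10 D pools and 0.789, 0.993 and 0.864 in C pools. All 24 h and all 10 D pools exceeded the C pools. The log2 change was 1.41 ± 0.29 at 24 h (2.66-fold, adjusted p = 0.11) and 0.74 ± 0.29 at 10 D, so neither passed the threshold.

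Utp4 belongs to the subcomplex that joins the precursor RNA first. Its levels were 6.84, 6.82 and 7.64 in 24 h pools, 7.13, 5.65 and 5.50 in 10 D pools and 4.02, 4.84 and 4.47 in C pools. Both clenbuterol groups lay above C in every pool, with log2 changes of 0.68 ± 0.20 (24 h, adjusted p = 0.29) and 0.45 ± 0.20 (10 D). Heatr1, the counterpart of yeast Utp10 in the same subcomplex, measured 4.92, 5.05 and 4.54 at 24 h, 3.73, 4.36 and 3.42 at 10 D and 2.92, 3.05 and 3.31 in C. Its pools also separated from C in both groups, with log2 changes of 0.65 ± 0.19 (adjusted p = 0.31) and 0.31 ± 0.19. The dimmer Heatr1 probesets had 0.47 ± 0.44 and -0.11 ± 0.28 at 24 h, with pools that overlapped C. Wdr75, another subunit there, measured 1.79, 1.57 and 1.31 at 24 h, 1.65, 0.967 and 0.976 at 10 D and 0.818, 0.867 and 1.08 in C. Only its 24 h pools cleared all C pools, with a log2 change of 0.75 ± 0.28 (adjusted p = 0.48). The second Wdr75 probeset had -0.16 ± 0.37 at 24 h, with overlap. Wdr43 and Utp15 of this subcomplex had log2 changes of 0.30 and -0.17 at 24 h, with pools that overlapped C. The dimmer Utp15 probeset had 0.61 ± 0.61, also with overlap.

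Utp20, a large scaffold protein of the later processome, measured 3.04, 2.39 and 3.59 at 24 h, 2.70, 1.87 and 1.96 at 10 D and 2.04, 2.30 and 2.15 in C. The lowest 24 h pool was just above the highest C pool, and the log2 change was 0.46 ± 0.24 (adjusted p = 0.65). Nop14 had a log2 change of 0.44 at 24 h, also with no overlap between pools, and Utp18 had 0.43 with overlap. Rrp9, a protein of the U3 snoRNP, was dim, with levels of 0.238 to 0.341 at 24 h, 0.275 to 0.333 at 10 D and 0.289 to 0.362 in C. Its log2 change of -0.13 had a 95% interval from -1.14 to 0.88, too wide to show a difference of the size seen for the other genes.

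**Figure D1:**
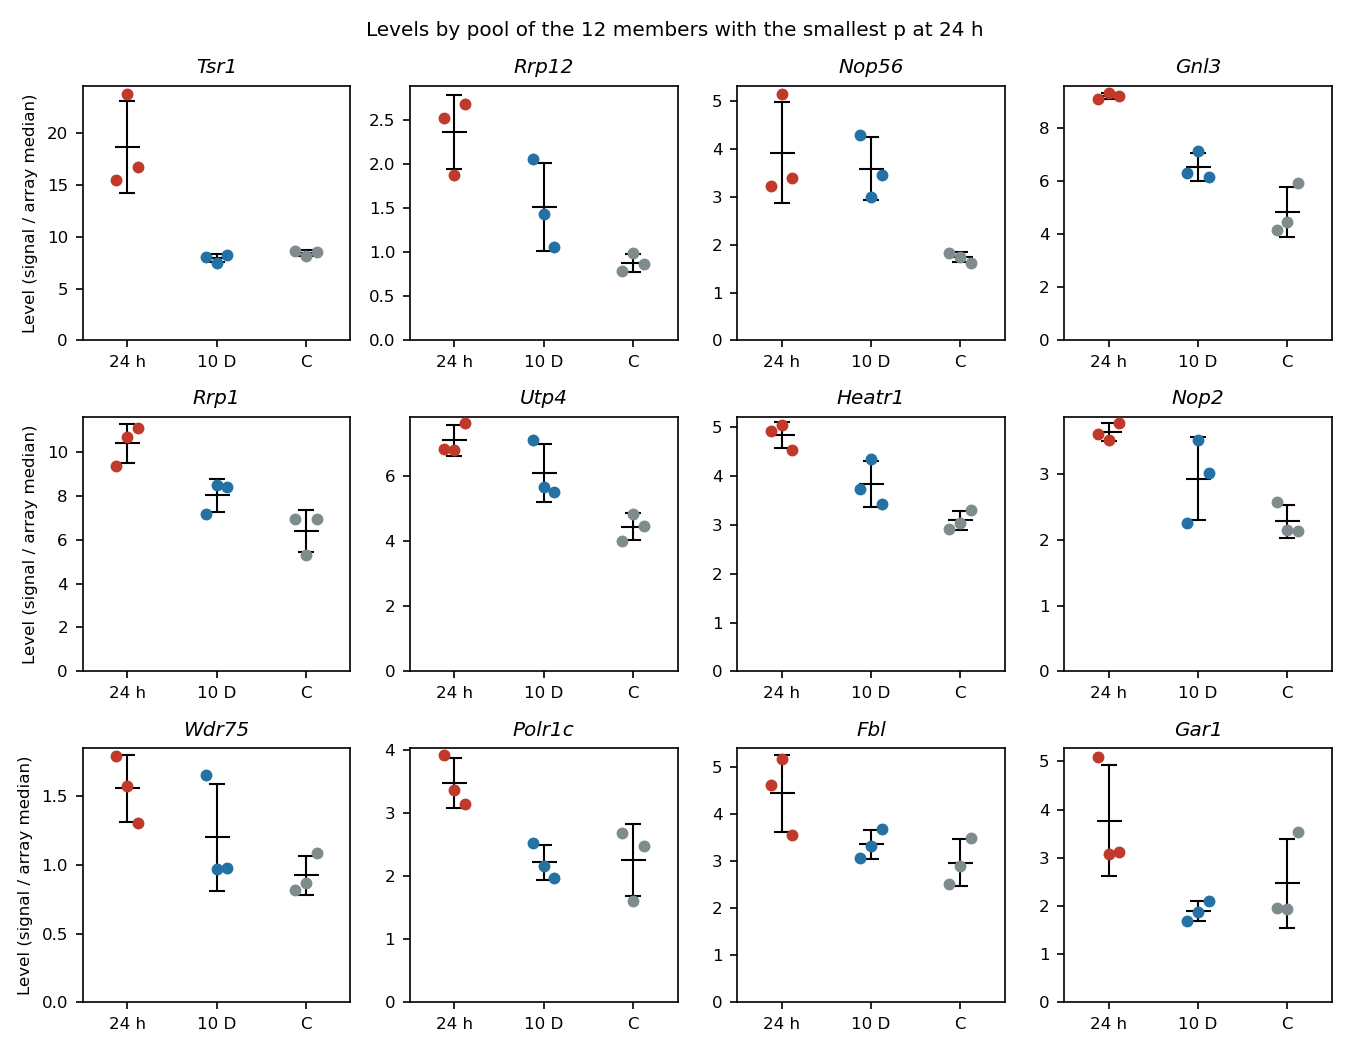
Levels (signal divided by the array median) of the 12 ribosome biogenesis genes with the smallest p at 24 h, by pool (points; 24 h red, 10 D blue, C gray), with the mean and SD of 3 pools (black bars). Tsr1 is high only in the 24 h pools (15.5 to 23.8, against 8.15 to 8.59 in C), whereas Nop56 is also above C at 10 D (3.00 to 4.30, against 1.63 to 1.84). The Nop56 probeset shown ranked first only through the clenbuterol pools. Its second probeset had a log2 change of -0.45 at 10 D.

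All 3 C/D snoRNP genes had log2 changes above 0 at 24 h, and 2 of them had every 24 h pool above C. Over all genes the shares were 53.5% and 11.5%. Nop56, a core protein of the particle, measured 3.22, 5.14 and 3.41 in 24 h pools, 4.30, 3.00 and 3.47 in 10 D pools and 1.84, 1.74 and 1.63 in C pools. Every clenbuterol pool was higher than every C pool. The log2 change was 1.15 ± 0.24 at 24 h (2.21-fold, adjusted p = 0.12) and 1.03 ± 0.24 at 10 D (2.05-fold, adjusted p = 0.97). The second Nop56 probeset gave 0.43 at 24 h and -0.45 at 10 D. In C it was the brighter of the 2, with a mean level of 2.19 against 1.74. The probeset used ranked first only through the clenbuterol pools, so its choice favored a rise over C. Fbl, the methyltransferase of the particle, measured 4.61, 5.16 and 3.55 at 24 h, 3.07, 3.32 and 3.67 at 10 D and 2.51, 2.89 and 3.49 in C. The third 24 h pool barely exceeded the highest C pool, and the log2 change was 0.58 ± 0.23 (adjusted p = 0.50). The second Fbl probeset had 0.16 ± 0.32 at 24 h, with overlapping pools. Nop58, the partner of Nop56, had a log2 change of 0.36 ± 0.30 at 24 h with overlapping pools.

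H/ACA snoRNP genes, with Nolc1 counted among them, had log2 changes from -0.48 to 0.63 at 24 h. Without Nolc1 the lowest was 0.23. Of 5 genes, 4 had log2 changes above 0 at 24 h, against 53.5% of all genes, and 0 had an unadjusted p under 0.05. Gar1, a core protein, measured 5.10, 3.08 and 3.12 in 24 h pools, 1.70, 1.88 and 2.11 in 10 D pools and 1.95, 1.93 and 3.54 in C pools. The third C pool overlapped the 24 h pools, and the log2 change was 0.63 ± 0.30 at 24 h (adjusted p = 0.62) and -0.33 ± 0.30 at 10 D. Dkc1, the pseudouridine synthase, had a log2 change of 0.23 at 24 h, and at 10 D of -0.26. For Nhp2 these were 0.30 and -0.23, and for Nop10 0.36 and 0.04. Nolc1, a nucleolar phosphoprotein that associates with snoRNPs, had the lowest log2 change of all 33 genes in both clenbuterol groups. It measured 0.720, 0.997 and 1.34 at 24 h, 1.16, 0.557 and 0.582 at 10 D and 1.74, 1.35 and 1.11 in C, with log2 changes of -0.48 ± 0.37 and -0.93 ± 0.37 (adjusted p = 0.78 at 24 h).

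Among 9 large subunit assembly genes, 8 had log2 changes above 0 at 24 h, 3 were higher at an unadjusted p under 0.05, and 3 had every 24 h pool above every C pool. Over all genes the shares were 53.5%, 6% and 11.5%. Gnl3 (nucleostemin), a nucleolar GTPase, measured 9.11, 9.33 and 9.22 in 24 h pools, 6.31, 7.15 and 6.17 in 10 D pools and 4.17, 4.48 and 5.94 in C pools. The groups did not overlap, with 10 D between the other two. Log2 changes were 0.94 ± 0.20 at 24 h (1.92-fold, adjusted p = 0.12) and 0.44 ± 0.20 at 10 D. Rrp1, a processing factor of large subunit RNA in yeast, measured 9.37, 10.7 and 11.1 at 24 h, 7.16, 8.49 and 8.41 at 10 D and 6.95, 5.28 and 6.95 in C. Its groups likewise did not overlap, with log2 changes of 0.71 ± 0.20 (adjusted p = 0.28) and 0.33 ± 0.20. Its second probeset had a log2 change of -0.28 at 24 h.

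Nop2, a methyltransferase of large subunit RNA, measured 3.62, 3.52 and 3.78 at 24 h, 2.27, 3.52 and 3.02 at 10 D and 2.57, 2.15 and 2.13 in C. The 24 h pools agreed closely and exceeded C, with a log2 change of 0.68 ± 0.22 (adjusted p = 0.38). Wdr74, an assembly factor, measured 2.54, 1.25 and 2.06 at 24 h, 1.44, 1.83 and 0.912 at 10 D and 1.21, 1.47 and 0.949 in C, so that its second 24 h pool overlapped C. The log2 change was 0.65 ± 0.35 (adjusted p = 0.66). Bop1, Pes1 and Wdr12 form a complex, and their log2 changes at 24 h were 0.23, -0.10 and 0.26, each with overlapping pools. Rrs1, which helps to place the 5S RNA particle, had 0.18, and Nop16 had 0.21 with an SE of 0.50. The dimmer Rrs1 probeset had -0.67 ± 0.51 at 24 h, with overlap.

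Polr1a, Polr1b and Polr1c were the Pol I subunits among the genes described here. Other Pol I subunits, such as Polr1e, were counted with the other genes of the pathway below. Of the tested probesets of Polr1a, Polr1b and Polr1c, only the brighter one of Polr1c had every 24 h pool above every C pool. Polr1c is a subunit that Pol III also uses. Polr1c measured 3.91, 3.36 and 3.13 in 24 h pools, 2.52, 2.16 and 1.97 in 10 D pools and 2.68, 1.61 and 2.47 in C pools. Its 24 h pools cleared both other groups, with a log2 change of 0.65 ± 0.25 at 24 h (adjusted p = 0.49) and 0.00 at 10 D. The other tested Polr1c probeset had 0.12 ± 0.35 at 24 h, with pools that overlapped C. The catalytic subunits Polr1a and Polr1b had 0.16 ± 0.26 and 0.22 ± 0.25 at 24 h with overlap. The other tested Polr1a probesets had -0.20 ± 0.27 and -0.69 ± 1.04, also with overlap. Pools of the abundant nucleolar proteins overlapped C too. Ncl (nucleolin) measured 18.5, 17.2 and 21.1 at 24 h, 27.7, 15.1 and 18.5 at 10 D and 23.0, 18.1 and 16.6 in C, with a log2 change of -0.01 at 24 h (95% interval -0.58 to 0.55). Npm1 (nucleophosmin), a chaperone, had 0.11 (-0.55 to 0.78). These intervals leave room for a change of the size seen in many of the other genes.

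**Figure D2:**
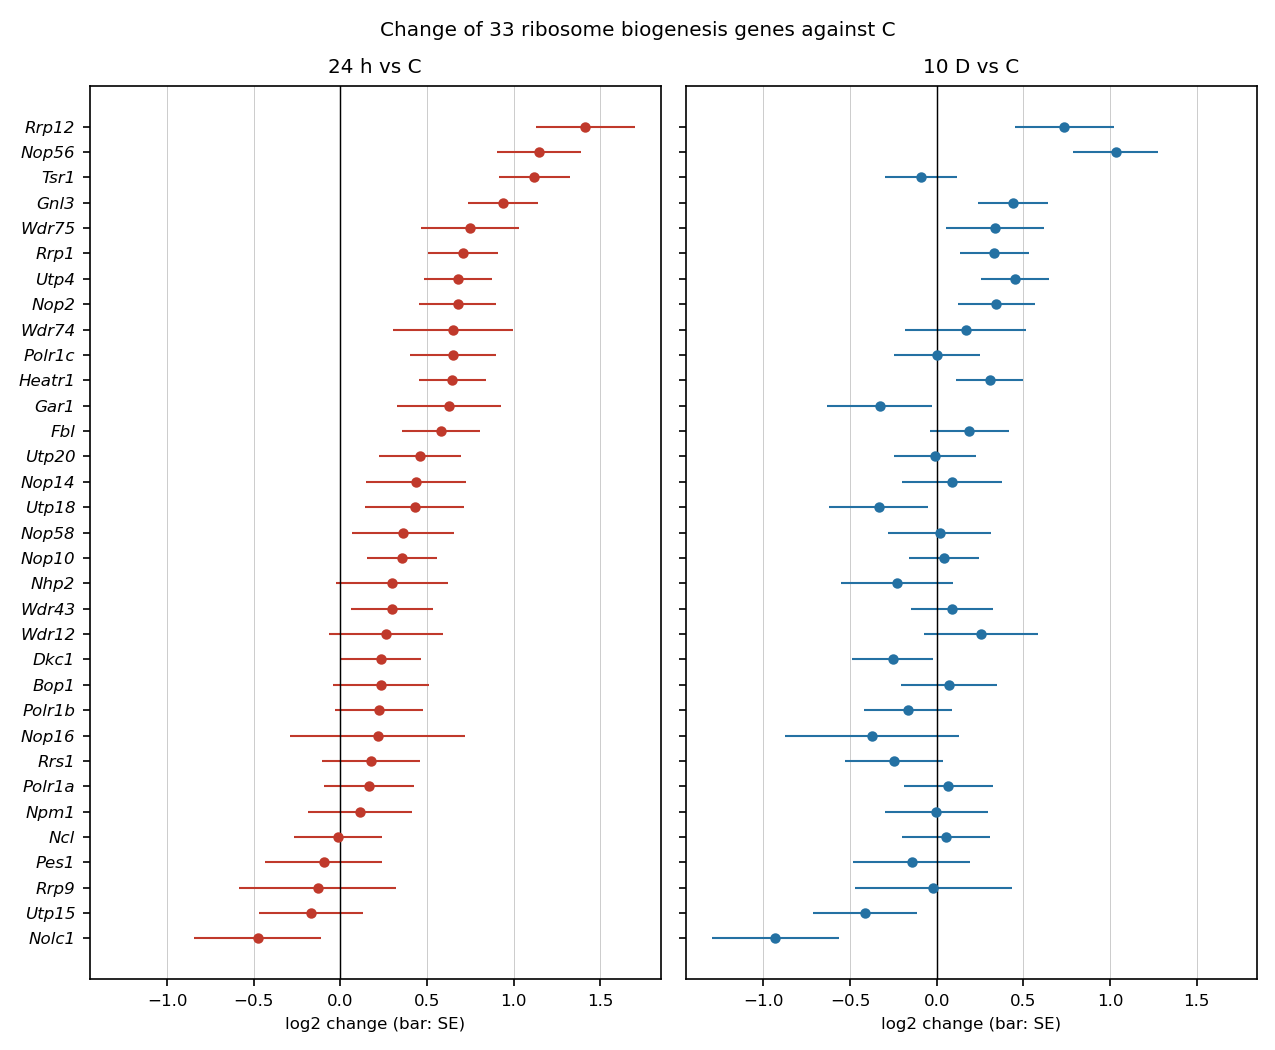
Log2 change of each of the 33 genes against C (points) with its SE (bars) at 24 h (left, red) and 10 D (right, blue), ordered by the 24 h value. At 24 h 28 points lie above 0, with a median of 0.36, and at 10 D 19 lie above 0, with a median of 0.04.

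After 10 D, none of the 33 genes passed the threshold against C (0 higher and 0 lower by limma), where 0% of all probesets were called in either direction. At an unadjusted p under 0.05, Nop56, Rrp12 and Utp4 (3 genes) were higher and Nolc1 (1 gene) lower, against 2.92% and 1.57% of all genes. A plain analysis of variance of the same probesets, with contrasts adjusted in the same way, also called 0. The log2 change was above 0 in 19 and below 0 in 14 of the 33 genes, against 53.1% and 46.9% of all genes, and the median was 0.04 beside 0.03 for all genes. Every 10 D pool exceeded every C pool for 6 genes (Nop56, Utp4, Heatr1, Rrp12, Rrp1 and Gnl3), a pattern seen in 6.26% of all genes, and for 0 genes did every 10 D pool lie below (4.29% of all genes). Nop56 enters this count, and that at an unadjusted p under 0.05, through a probeset that ranked first only through the clenbuterol pools. Its second probeset had a log2 change of -0.45 at 10 D. The small subunit group had 6 of 11 genes above 0, the large subunit group 6 of 9, and the H/ACA group 1 of 5.

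The 10 D and 24 h groups were also compared directly. This comparison shares the 24 h pools with that of 24 h against C, so the values are not independent of those above. None of the 33 genes passed the threshold (0 higher and 0 lower by limma), where 0.0148% of probesets were called higher and 0.0356% lower at 10 D. Log2 differences, 10 D minus 24 h, were below 0 for 31 of 33 genes and above 0 for 2, against 51.8% and 48.2% of all genes, with a median of -0.37 beside -0.02 for all genes. The exceptions were Rrp9 at 0.11 and Ncl at 0.07. At an unadjusted p under 0.05, 6 genes (Tsr1, Gar1, Utp18, Rrp12, Polr1c and Gnl3) were lower and 0 higher, against 3.46% and 2.76% of all genes. In 11 genes every 10 D pool lay below every 24 h pool, which held for 5.74% of all genes, and the reverse held for 0 genes (4.41% of all genes). Tsr1 had the largest difference, -1.21 ± 0.21 (adjusted p = 0.12), followed by Gar1 at -0.96 ± 0.30 (adjusted p = 0.67) and Utp18 at -0.76 ± 0.29 (adjusted p = 0.81). Nop56 differed by only -0.11 ± 0.24 by the probeset used, but by -0.88 ± 0.24 by its second one. In the F test over the 3 groups, Tsr1 was again the only gene called (adjusted p = 0.081), where 0.216% of probesets were. The call was lost in 8 of 9 fits with a pool left out, all but that without 10 D pool 2. It was also lost in 6 of 14 other alternatives, among them the fit with the pool number as a replicate block.

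More than 1 probeset was tested for 20 of the 33 genes, and they did not always give the same picture. The other 27 tested probesets, dimmer than those used above, had a median log2 change of 0.12 at 24 h. Of these 16 were above 0, 1 had an unadjusted p under 0.05, and 0 passed the threshold. Probesets of 10 genes were all above 0, and those of 9 genes differed in sign. In 13 of the 20 genes every dimmer probeset had a lower 24 h value than the brightest. In the other 7 (Dkc1, Ncl, Nolc1, Utp15, Utp18, Wdr12 and Wdr43) at least 1 dimmer probeset had a higher one. The probeset with an unadjusted p under 0.05 belonged to Wdr43, named after its values were seen, whose second probeset had a log2 change of 0.95 ± 0.29 at 24 h (adjusted p = 0.32) beside 0.30 for the brighter one. A further 5 probesets were too dim to be tested.

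**Figure D3:**
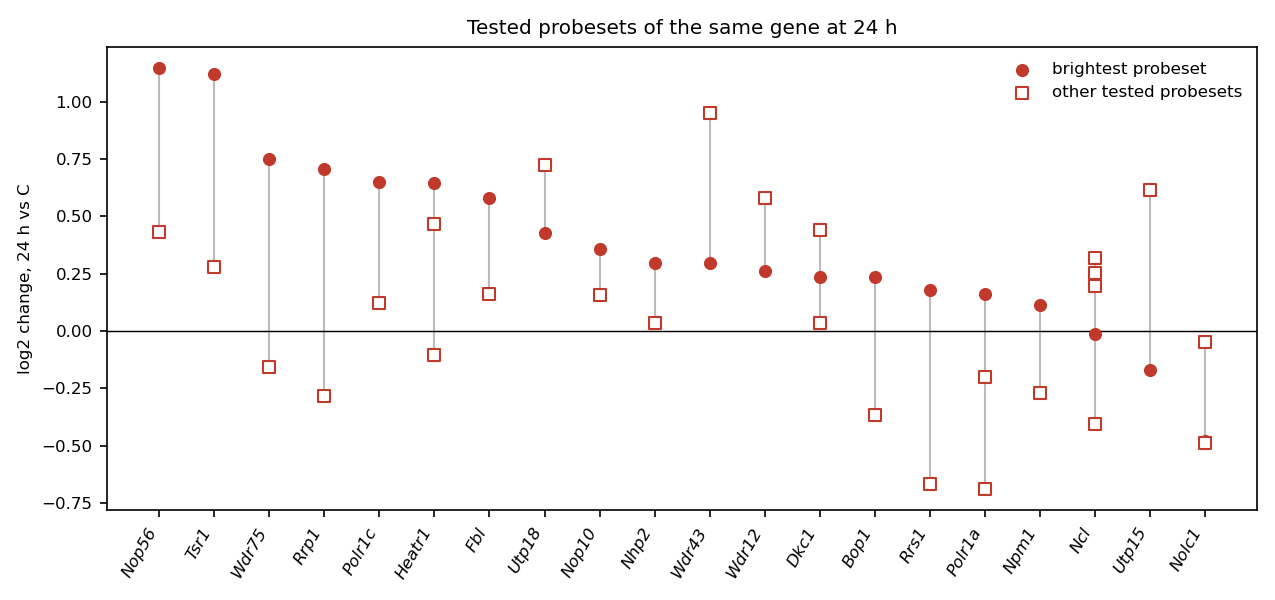
Log2 change at 24 h against C for every tested probeset of the 20 genes with more than 1. Filled circles mark the brightest probeset, which was used for the gene, and open squares the others. The 27 other probesets have a median of 0.12 and fall on both sides of 0.

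Other genes of the pathway, listed by role and with the 33 genes left out, were also compared with C at 24 h, and 0 in any list passed the threshold. Over all tested genes, 53.5% were above 0, and 6% were higher and 3.55% lower at an unadjusted p under 0.05. Of 43 further small subunit assembly genes, 35 had log2 changes above 0 (median 0.23), and 6 were higher and 1 lower at an unadjusted p under 0.05. Those with the smallest p were Utp11 at 0.87 ± 0.23 (adjusted p = 0.23), Wdr46 at 1.10 ± 0.30 (adjusted p = 0.24) and Ddx10, an RNA helicase, at -0.78 ± 0.27 (adjusted p = 0.41). Of 44 large subunit assembly genes, 34 were above 0 (median 0.26), with Tex10 at 1.18 ± 0.29 (adjusted p = 0.19), Brix1 at 0.88 ± 0.29 (adjusted p = 0.38) and Rpf2 at 0.59 ± 0.20 (adjusted p = 0.39). Of 14 Pol I transcription genes, 11 were above 0 (median 0.33), led by the subunit Polr1e at 1.15 ± 0.34 (adjusted p = 0.30). The snoRNP assembly factors (5 of 7 above 0, median 0.15) had a lower median, as did the nuclear exosome (7 of 13 above 0, median 0.17), whose share above 0 was near that of all genes. At 10 D the medians were 0.05 for the small subunit, 0.04 for the large subunit, 0.04 for Pol I, 0.08 for snoRNP assembly and -0.12 for the exosome.

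Markers of fibers and other cell types were measured beside these genes. All 15 fiber markers had log2 changes below 0 at 24 h (median -0.25, 0 called), and 14 of 15 did at 10 D. Their summed level was 2130 to 2797 in 24 h pools, 1870 to 3136 in 10 D pools and 2536 to 3900 in C pools. Myog, a transcription factor of differentiating myoblasts, was higher at 24 h (9.11, 10.1 and 6.53 at 24 h, against 2.31, 1.54 and 2.36 in C; log2 change 2.06, adjusted p = 0.053). It was the only one called of 9 satellite cell and myoblast markers, which had a median of -0.10 and summed levels of 115.8 to 122.0 at 24 h, 111.6 to 132.4 at 10 D and 110.6 to 145.0 in C. S100a8, a neutrophil gene, was also higher (2.78, 2.07 and 2.05 at 24 h, against 0.205, 0.0354 and 0.196 in C; adjusted p = 0.044), as 1 of 6 neutrophil and lymphocyte markers tested. Of the other 5, the B cell gene Cd79a (log2 change -0.97, adjusted p = 0.32) and the leukocyte gene Ptprc (-0.99, adjusted p = 0.49) had every 24 h pool below every C pool without passing the threshold. The summed level of the 8 measured was 10.1 to 11.9 at 24 h, 9.17 to 10.8 at 10 D and 8.51 to 10.5 in C. Rrm2, a subunit of ribonucleotide reductase, was higher at 24 h with a log2 change of 1.69 (adjusted p = 0.10, just under the threshold before rounding), as 1 of 9 proliferation markers tested. Those 9 had a median of -0.07, and the 15 measured had summed levels of 14.7 to 17.9 at 24 h, 13.4 to 16.4 at 10 D and 12.5 to 15.7 in C. The macrophage, endothelial, fibroblast and adipocyte lists had 0 genes called at 24 h and medians of 0.05, 0.14, -0.33 and -0.49. The part of these cells in the levels of the ribosome biogenesis genes was not tested.

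**Figure D4:**
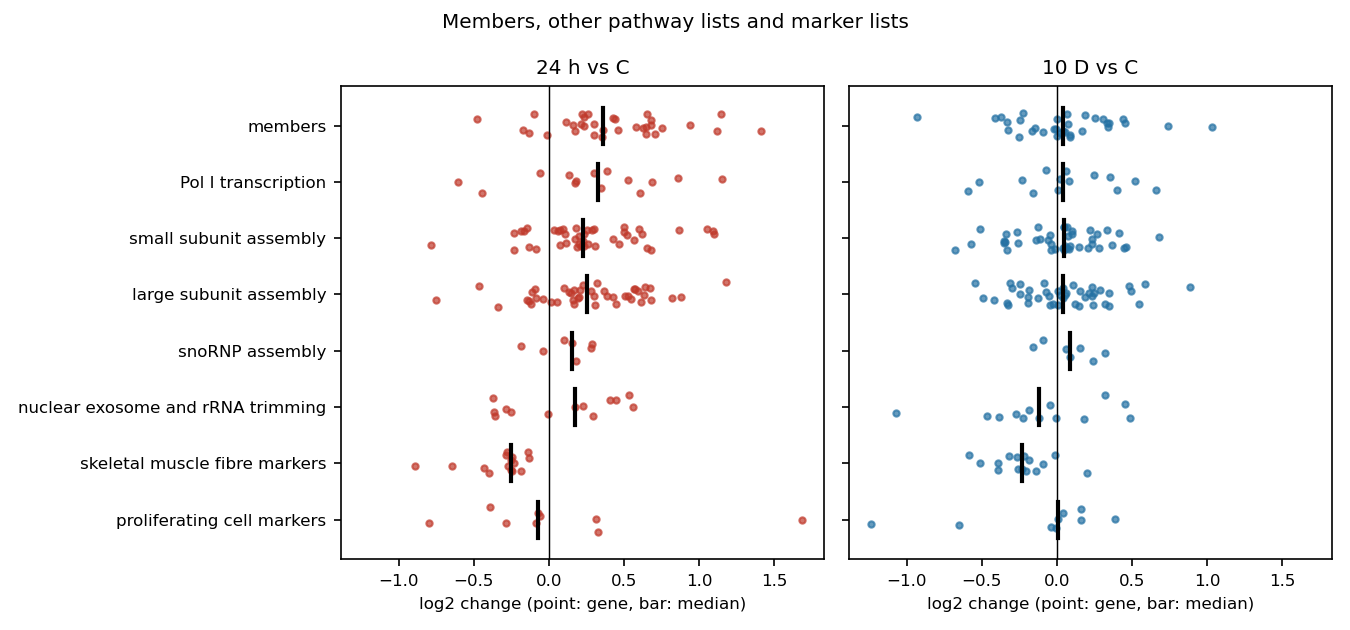
Log2 change against C of each tested gene (points) at 24 h (left) and 10 D (right), with list medians (black bars), for the 33 ribosome biogenesis genes, 5 other lists of the pathway and 2 lists of cell markers. At 24 h the medians of the pathway lists lie between 0.15 and 0.36 and that of the fiber markers at -0.25.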

How the data were processed

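The authors hybridized RNA of 9 pools to MOE430A and MOE430B arrays and deposited the MAS 5.0 signal of each probeset. It is an intensity on a linear scale, with medians that differed between arrays. The MAS 5.0 settings are not given in the sources used here. MAS 5.0 corrects background within each array, which can move dim values most. From the deposited intensities, signals of 0 (18 values) were set to 0.05, each was divided by its array median, and log2 was taken. Probesets with a mean log2 signal at or above the 25th percentile of their chip (signals of 14.1 on MOE430A and 6.97 on MOE430B) were tested: 33752 of 45037. Models with 3 groups were fitted per chip with limma 3.58.1 (lmFit, eBayes with an intensity trend) in R 4.3.3, with 1 Benjamini-Hochberg adjustment over the p-values from MOE430A and MOE430B. The number of arrays limits the precision. The platform annotation gave 1 gene symbol to 34945 probesets, several to 932 and none to 9160. Genes named with pool values were Tsr1, the called gene, and those with the smallest p at 24 h up to 14 genes. Nolc1, Ncl and the marker genes were added after their values were seen. The genes and lists were chosen with earlier results of these data known. Pools were separate animals, so p-values measure the spread between pools. No batch was named in the sources. Alternatives covered scaling, filter, variance model, weights, probeset choice, a replicate block and each pool left out. The plain analysis of variance among them used the 33752 probesets tested here and adjusted contrasts. The study instead dropped probesets called absent on all arrays, calls that were not used here, so its set of probesets differed. Replicate numbers were not taken to pair the pools, since same-numbered pools did not correlate above 0.1 in every comparison on both chips. The lowest correlation between pools of 1 group was 0.798.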

Additional observations from a re-analysis of the deposited data

How the results depend on the processing

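The median log2 change of the 33 genes at 24 h stayed above 0 in all 24 alternatives, from 0.31 to 0.52, and was 0.52 without both treated pools numbered 2. The number called at 24 h (1, Tsr1) did depend on the processing. It was 2 with quantile normalization, with the median of the brighter probesets, with 16 added to the signal, with only the 2 groups fitted and with the mean of a gene's probesets, 3 with p adjusted within each chip, 4 with a filter at the 50th percentile, 0 without the variance trend and 0 by a plain analysis of variance. It was 4 without both pools numbered 2 and 4 with the array median as a covariate, both chosen after seeing the data. Array weights gave 8 at 24 h, 5 at 10 D, 11 for 10 D against 24 h and 16 in the F test, but called 2880 probesets at 10 D over all genes, where the fit without weights called 0, and their estimation stopped before convergence. The count for 10 D against 24 h (0) became 1 with quantile normalization and 1 without both pools numbered 2. The F test count (1) was 0 without the filter, without the trend, by a plain analysis of variance, with p adjusted within each chip and with the mean of probesets, and 2 without both pools numbered 2. With each pool left out in turn, the counts ranged from 0 to 4 at 24 h (4 without 10 D pool 2, 2 without 10 D pool 1 and 0 without any of the others), 0 to 1 for 10 D against 24 h and 0 to 1 in the F test (1 only without 10 D pool 2), and the 24 h median from 0.32 to 0.52.

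Tsr1 passed the threshold in 13 of 24 alternatives (adjusted p 0.015 to 0.31), Rrp12 in 12 (0.013 to 0.38), Gnl3 in 7 (0.019 to 0.49) and Nop56 in 6 (0.023 to 0.40). Tsr1 missed it without the trend (0.21), by a plain analysis of variance (0.12), with p adjusted within each chip (0.12) and with the mean of its probesets (0.31). The cause was not tested. The median at 10 D (0.04) ranged from -0.056 to 0.087 and was below 0 without 10 D pool 1 (-0.048), with the mean of probesets (-0.056) and with the array median as a covariate (-0.022). Of the 14 genes with pool values by rule, 4 changed sign at 10 D, where none of the 4 was called, and 0 at 24 h. Polr1c was -0.028 with quantile normalization, -0.031 with the median of the brighter probesets, -0.0011 with 16 added, -0.093 with array weights and -0.17 with the mean of probesets, and -0.22 to 0.14 with a pool left out. Wdr74 was -0.42 with array weights, -0.058 without both pools numbered 2 and -0.058 to 0.44 with a pool left out. Fbl was -0.056 with the mean of probesets, and Utp20 0.090 without both pools numbered 2 and -0.18 to 0.090 with a pool left out. As a replicate block, the pool number left 1 gene called at 24 h (Tsr1, adjusted p = 0.083) and 0 in the F test and for 10 D against 24 h. Same-numbered pools correlated by -0.07 to 0.05 between either clenbuterol group and C. Between 10 D and 24 h they correlated by 0.39, 0.56 and 0.10 on MOE430A, all over 0.1, but by 0.11, 0.16 and 0.01 on MOE430B from the same pools, so the numbers were not taken to pair the pools. Dim probesets limit the precision, as for Rrp9.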

Other observations

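Across the 9 pools, the 33 genes were described by the correlation of their log2 levels, with no test since all points share the same arrays and treatments. The median Pearson r over 528 pairs of genes was 0.33 (range -0.54 to 0.96), and 432 pairs were above 0. After the mean of each group was taken out, the median was 0.10 and 301 pairs were above 0.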
